A study of Mus musculus with 16 samples.

Results

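Transcripts of 54 genes of neuropeptide signalling were followed in 2 forebrain regions of mice lacking Foxp1 in pyramidal neurons. They are 19 neuropeptide precursors, 4 granins and 31 peptide receptors, out of 21999 genes measured. They were chosen by gene symbol for what they encode, with earlier results of these data known, and all 54 symbols were found. Neuropeptides are small signalling proteins that neurons cut from larger precursors and release from dense core vesicles, to act mostly on G protein-coupled receptors. In the forebrain many precursors mark particular GABAergic interneurons, while others are made by pyramidal neurons. Granins are acidic proteins that fill the vesicles and are themselves cut into peptides.

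RNA was sequenced from forebrain tissue of male mice at postnatal day 47, 4 libraries in each of 4 groups. The groups were hippocampus of conditional knockouts of Foxp1 (cKO), hippocampus of littermate controls, cortex of cKO mice and cortex of littermate controls, all from the left hemisphere. Foxp1 is a transcription factor of the forkhead family, and the series title places the knockout in forebrain pyramidal neurons. The sources used here do not give the Cre driver, the deleted part of Foxp1, the strain, the alleles of the controls, or which tissues share a mouse. Levels are in CPM (reads of a gene per 1000000 reads of the library), and libraries are called by the DJ numbers of their titles. Values of 4 libraries are listed in the order DJ15, DJ16, DJ18 and DJ19 for cKO hippocampus, DJ17, DJ20, DJ21 and DJ22 for control hippocampus, DJ1, DJ2, DJ4 and DJ5 for cKO cortex, and DJ3, DJ6, DJ7 and DJ8 for control cortex. A gene is called changed when its limma adjusted p, over all genes tested, was under 0.05, and fold changes are on the log2(CPM + 0.5) scale, which understates changes of low genes. The p-values measure the spread between libraries, which the study describes as independent replicates.

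Total counts were 6943136 to 14817870 reads, so that 1 read was worth 0.0675 to 0.144 CPM. Foxp1 itself averaged 119 ± 16.0 CPM in cKO hippocampus and 227 ± 45.3 CPM in control hippocampus (SD), 52.3% of control. In cortex it averaged 113.5 ± 21.2 CPM in cKO mice and 284 ± 14.1 CPM in controls, 39.9% of control. The groups did not overlap in either region (two-sided exact permutation test p = 0.0286, the smallest that 4 against 4 libraries allow). Summed levels of 6 dentate granule cell genes were 470 to 557 CPM in cKO hippocampus against 342 to 387 CPM in cKO cortex, and 446 to 644 CPM in control hippocampus against 241 to 273 CPM in control cortex. Those of 6 CA1 genes were 255 to 354 CPM in cKO hippocampus and 421 to 481 CPM in cKO cortex, and 355 to 466 CPM in control hippocampus and 392 to 415 CPM in control cortex, so that this sum did not separate the regions in controls. In controls 4 of these 6 genes were called higher in hippocampus and 2 lower, and in cKO mice 2 higher and 2 lower. Of the CA1 genes, Pou3f1 and Man1a were called lower in cKO hippocampus. Summed levels of several neuron lists also differed between genotypes, which need not hold for each gene. For 8 pyramidal neuron genes they were 3824 to 4161 CPM in cKO hippocampus against 4250 to 5103 CPM in control hippocampus, and 4654 to 4801 CPM in cKO cortex against 4802 to 5345 CPM in control cortex, where the ranges almost touched. Of these 8 genes, 0 were called in hippocampus, and 0 higher and 2 lower in cortex (25% against 13.5% of all genes). For 5 CA3 genes they were 218 to 251 CPM in cKO hippocampus against 255 to 274 CPM in control hippocampus, though 1 gene was called higher there and 0 lower. For 6 thalamic genes they were 92.02 to 110.3 CPM in cKO cortex against 76.0 to 89.5 CPM in control cortex, with 1 of 5 tested called higher. Markers of other tissue differed in places. Summed levels of 12 striatal neuron genes were 663 to 1007 CPM in cKO cortex against 263 to 588 CPM in control cortex, and 479 to 1016 CPM in cKO hippocampus against 198 to 986 CPM in control hippocampus. Summed levels of 6 oligodendrocyte genes were 2772 to 3713 CPM in cKO cortex against 4636 to 6358 CPM in control cortex, with all 6 called lower. In hippocampus the oligodendrocyte sums were 5777 to 8239 CPM in cKO mice and 4602 to 12031 CPM in controls, where DJ17 had the highest oligodendrocyte and striatal sums. In cortex, 6 choroid plexus genes summed to most in cKO DJ1 (230 CPM) and control DJ6 (156 CPM). In hippocampus they summed to 931 to 1825 CPM in cKO mice and 568 to 1043 CPM in controls. All 6 were called higher in hippocampus than in cortex in each genotype. Of 8 hypothalamic genes, which would mark adjoining peptide-rich tissue, the summed level was at most 5.04 CPM in any library and Hcrt was at 0 in all. The part of these cells and tissues in the results was not tested beyond the values given below. In bulk tissue, fewer cells of a type and less RNA per cell cannot be told apart.

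The upstream sequences of 3 granin genes and 2 receptor genes are shown. These genes carry contrasts described below, and each window also holds a motif that was searched for. Qrfpr, Glp2r and Oxtr, with large changes in cortex, held none of these motifs and are not shown. The granins Chga and Chgb were lower in cKO cortex while Scg2 was higher, Rxfp2 had the steepest fall, and Cckbr is among the members that differ most between regions. Each is 300 bases from RefSeq on GRCm38.p6, 250 before and 50 after the annotated start, written 5′ to 3′ on the gene's strand. Capitals mark the cAMP response element TGACGTCA or its shorter core TGACGT in the granins, the forkhead letters TATTTAC in Rxfp2, and GTAAACA, the reverse complement of the forkhead letters TGTTTAC, in Cckbr.
Chga, chr12:102554691-102554990, plus strand: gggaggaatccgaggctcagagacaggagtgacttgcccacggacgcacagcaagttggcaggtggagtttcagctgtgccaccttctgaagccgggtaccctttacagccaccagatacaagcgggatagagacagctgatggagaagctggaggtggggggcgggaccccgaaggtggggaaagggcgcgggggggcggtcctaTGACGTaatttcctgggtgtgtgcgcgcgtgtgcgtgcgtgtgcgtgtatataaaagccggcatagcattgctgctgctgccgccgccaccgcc
Chgb, chr2:132781392-132781691, plus strand: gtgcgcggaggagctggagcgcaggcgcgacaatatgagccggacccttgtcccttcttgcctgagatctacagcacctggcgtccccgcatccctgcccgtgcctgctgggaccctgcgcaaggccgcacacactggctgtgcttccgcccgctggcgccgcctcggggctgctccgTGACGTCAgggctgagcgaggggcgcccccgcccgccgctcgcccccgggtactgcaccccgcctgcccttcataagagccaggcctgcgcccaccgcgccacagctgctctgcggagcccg
Scg2, chr1:79439977-79440276, minus strand: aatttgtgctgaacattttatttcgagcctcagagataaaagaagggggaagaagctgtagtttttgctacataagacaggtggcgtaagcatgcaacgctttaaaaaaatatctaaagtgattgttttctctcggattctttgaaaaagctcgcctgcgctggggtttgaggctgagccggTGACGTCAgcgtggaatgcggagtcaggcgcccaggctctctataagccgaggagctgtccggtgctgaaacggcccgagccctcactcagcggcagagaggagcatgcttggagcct
Rxfp2, chr5:150018425-150018724, plus strand: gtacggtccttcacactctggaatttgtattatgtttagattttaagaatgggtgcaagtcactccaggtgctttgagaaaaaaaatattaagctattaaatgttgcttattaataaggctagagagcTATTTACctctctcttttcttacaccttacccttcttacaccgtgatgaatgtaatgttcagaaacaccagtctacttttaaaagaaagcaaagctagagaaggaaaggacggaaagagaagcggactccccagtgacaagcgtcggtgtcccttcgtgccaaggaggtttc
Cckbr, chr7:105425481-105425780, plus strand: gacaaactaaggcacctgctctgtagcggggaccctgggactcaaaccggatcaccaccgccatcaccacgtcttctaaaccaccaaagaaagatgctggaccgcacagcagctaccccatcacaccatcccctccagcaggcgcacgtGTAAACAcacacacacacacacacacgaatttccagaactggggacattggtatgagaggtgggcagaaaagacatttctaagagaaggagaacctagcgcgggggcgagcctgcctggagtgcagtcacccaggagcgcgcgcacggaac

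Both strands were searched, in 53 windows of the 44 members that RefSeq's table holds and in all 32851 windows. The full element TGACGTCA lay in 5 member windows, those of Cartpt, Chgb, Scg2, Sst and Sstr2, and in 1.79% of all windows. The core TGACGT, which every full element also holds, lay in 13 member windows and in 7.51% of all. TGTTTAC lay in 2 member windows (Cck and Cckbr) and in 3.65% of all, and TATTTAC in 1 (Rxfp2) and in 3.04% of all. Either of these forkhead motifs lay in 6.54% of all windows. The full element thus stands upstream of Chgb, which was lower in cKO cortex, and of Scg2, which was higher. A match describes letters in this window and is not a measured binding site. Crh, Grp, Penk, Pnoc, Vgf, Galr1, Oprk1, Sstr1, Mc4r and Rxfp1 were not matched.

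Per kilobase of annotated exon, the most abundant members were the granin Chgb and, after it, Npy in cortex and Scg2 in hippocampus. Chgb stood at 173 CPM per kilobase in cKO hippocampus, 242 in control hippocampus, 176 in cKO cortex and 201 in control cortex. Npy stood at 60.0, 45.6, 123 and 140 CPM per kilobase in the same groups, and Scg2 at 126, 133, 112 and 95.8. Among receptors, Npy2r led in hippocampus with 23.6 CPM per kilobase in cKO mice and 29.3 in controls, and Cckbr led in cortex with 22.8 in cKO mice and 15.3 in controls. Gal (galanin), Pomc (the precursor of melanocortins and beta-endorphin) and Hcrtr1 (an orexin receptor) averaged under 0.5 CPM over the libraries of each region and were too low to test. Crhr2, Galr1 and Vipr2 were also too low in cortex, which left 51 members tested in hippocampus and 48 in cortex.

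The largest set of changes was in cortex. There 22 of 48 tested members changed in cKO mice, 18 higher and 4 lower. That is 45.8% of them against 13.5% of all 13713 genes tested (7.64% higher and 5.83% lower). Since the members were chosen with earlier results known, such shares, here and below, are not a test of the set. By role, 6 of 17 precursors rose, 2 granins rose and 2 fell, and among 27 receptors 10 rose and 2 fell. The median log2 fold change was 0.23 over members and 0.03 over all genes. The plot of genotype effects shows that the rises reached further than the falls, with receptors at both ends.

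**Figure D1:**
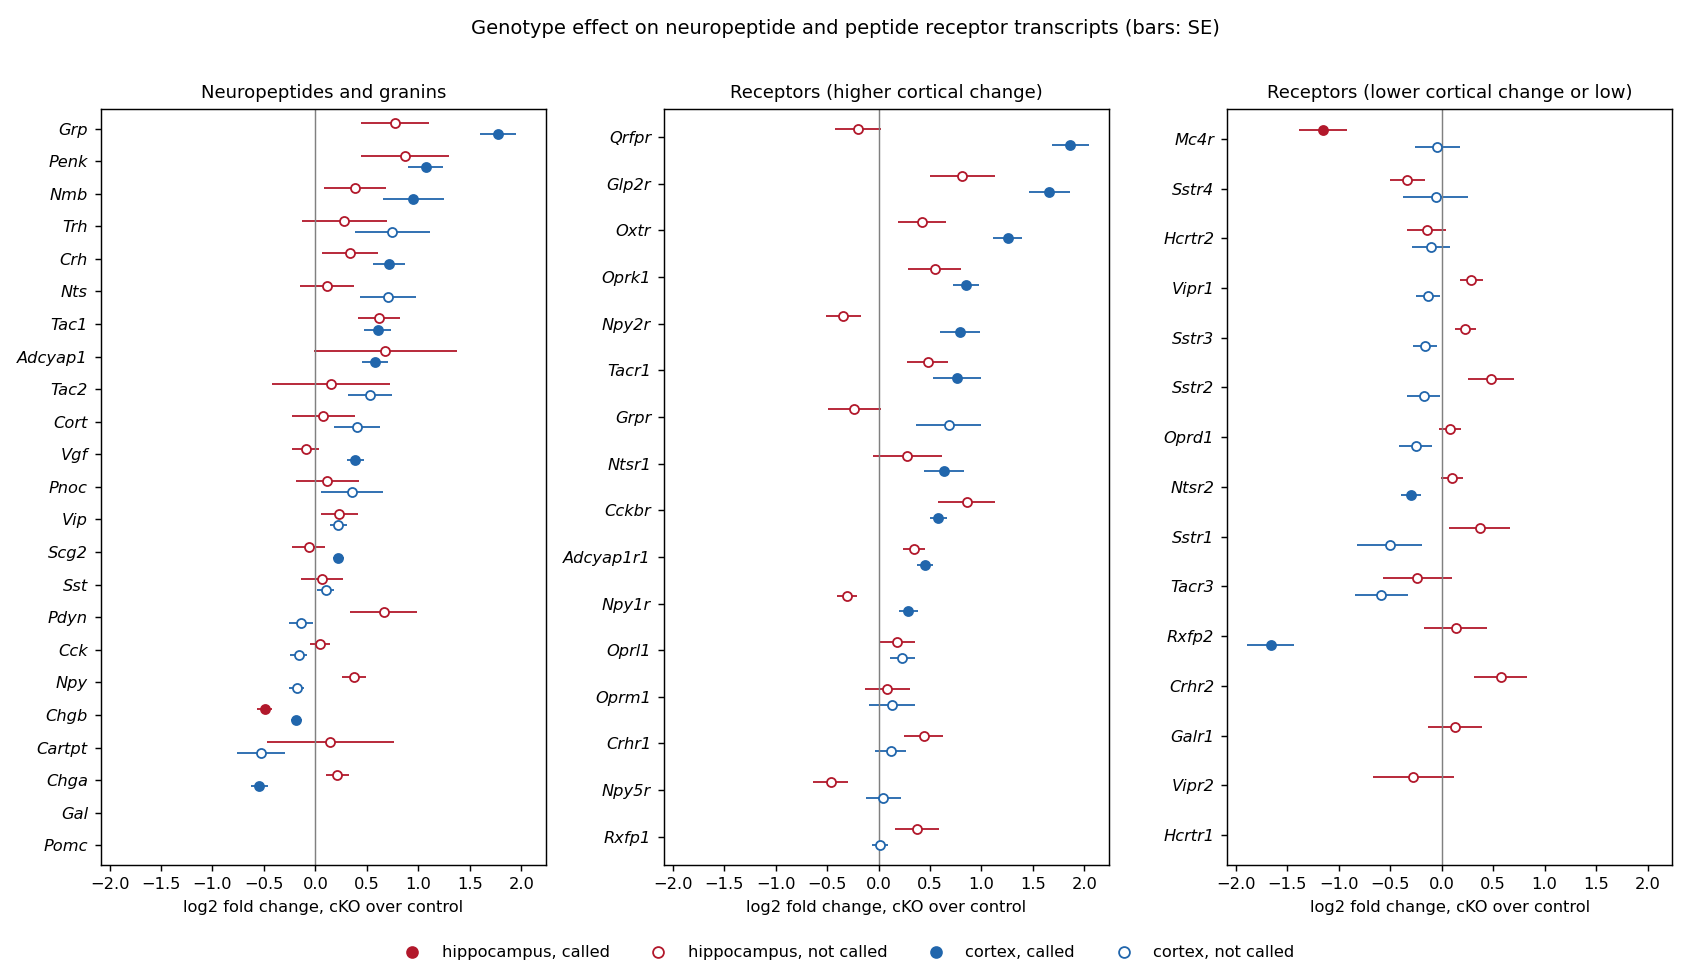
Log2 fold change, cKO over control, of each member in hippocampus (red) and cortex (blue), with standard errors as bars and filled points for called members. Cortical points run from -1.66 (Rxfp2) to 1.86 (Qrfpr), while in hippocampus only Chgb and Mc4r are filled. Members without a point were too low to test in that region.

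Among cortical precursors the rises covered bombesin-like, opioid, stress-related, PACAP and tachykinin peptides. Grp encodes gastrin-releasing peptide, a bombesin-like peptide. Grp measured 11.9, 7.96, 10.0 and 7.53 CPM in cKO cortex, against 2.51, 2.54, 2.12 and 2.22 CPM in control cortex. All 4 cKO libraries were far above all 4 control libraries (log2 fold change 1.77, SE 0.17, adjusted p = 1.6e-06). Its relative Nmb, neuromedin B, measured 1.66, 0.735, 1.95 and 1.09 CPM in cKO cortex, against 0.557, 0.221, 0.848 and 0.222 CPM in control cortex. The groups overlapped, and the call was near the threshold (log2 fold change 0.95, SE 0.30, adjusted p = 0.041). It was lost when single libraries were left out (adjusted p = 0.059 to 0.13 without cKO DJ1, DJ4 or DJ5, or control DJ6 or DJ8). Nmb shares 163 exon bases with Sec11a, whose own log2 fold change was 0.08 (adjusted p = 0.69), so that at about 1 CPM the assignment of its reads is uncertain.

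Penk, the enkephalin precursor, measured 112, 88.0, 82.7 and 137 CPM in cKO cortex, against 34.9, 62.6, 63.7 and 40.3 CPM in control cortex. All 4 cKO libraries were above all 4 control libraries (log2 fold change 1.07, SE 0.17, adjusted p = 0.00031). Tac1, the precursor of substance P and neurokinin A, measured 33.4, 26.2, 24.8 and 31.0 CPM in cKO cortex, against 15.3, 22.6, 21.3 and 16.4 CPM in control cortex. The groups again did not overlap (log2 fold change 0.61, SE 0.13, adjusted p = 0.0035). Penk and Tac1 are also abundant in striatal projection neurons, and 8 of 12 striatal neuron genes were called higher in cKO cortex by limma, 5 by edgeR and 4 by DESeq2, among them Sh3rf2 (8.05 CPM in cKO cortex and 2.51 CPM in control cortex) and Gpr6 (2.66 CPM in cKO cortex and 0.880 CPM in control cortex). Control DJ3, with the lowest striatal sum in cortex (263 CPM), also had the lowest Penk and Tac1, and cKO DJ5, with the highest sum (1007 CPM), had the highest Penk. Without these 2 libraries the log2 fold changes were 0.78 for Penk and 0.48 for Tac1, both still called. The striatal sums of the libraries left still differed by genotype, at 663 to 797 CPM in cKO cortex and 386 to 588 CPM in control cortex. The part of striatal tissue in these rises was not tested. Pdyn, the dynorphin precursor and also a striatal transcript, measured 13.7, 11.6, 14.5 and 11.2 CPM in cKO cortex, against 12.5, 15.5, 14.7 and 13.7 CPM in control cortex, with overlapping groups (log2 fold change -0.14, SE 0.12, adjusted p = 0.52). Penk also shares 233 exon bases with a transcript on the opposite strand, and the sources used here do not say if counting was stranded.

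**Figure D2:**
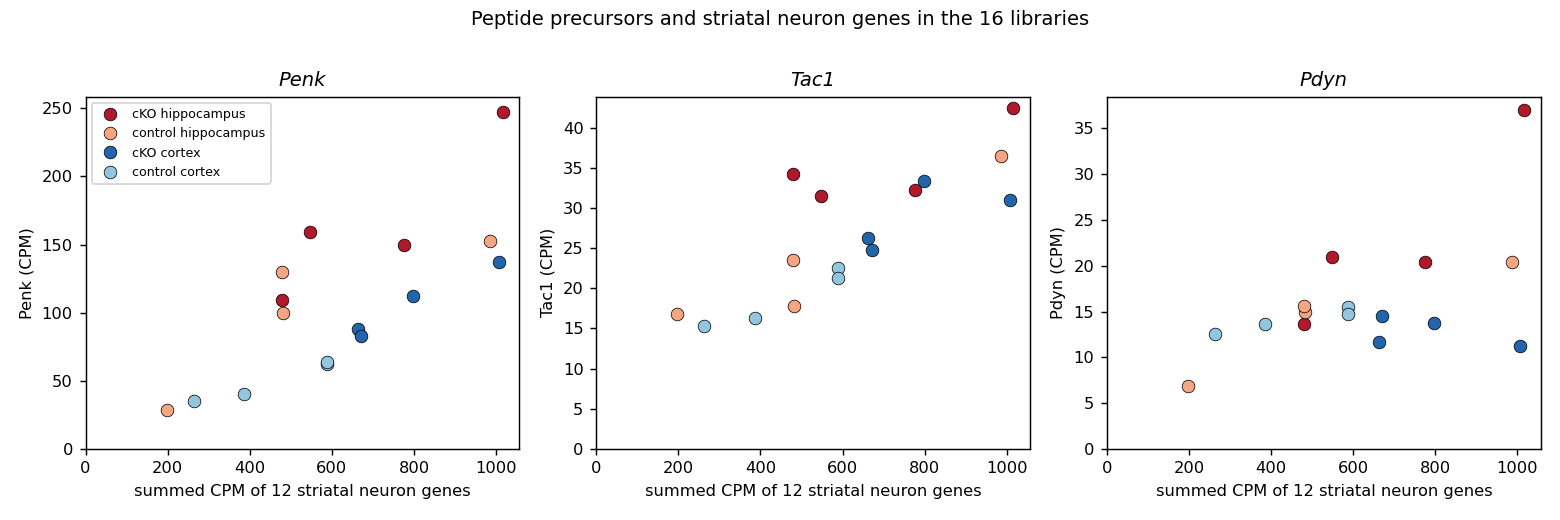
CPM of Penk, Tac1 and Pdyn in the 16 libraries (vertical axes) against the summed CPM of 12 striatal neuron genes that do not include them (horizontal axes). Control hippocampus DJ22 and control cortex DJ3 are lowest on the horizontal axis at 198 and 263 CPM, and have the lowest Penk of their regions at 28.7 and 34.9 CPM.

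Crh, corticotropin-releasing hormone, measured 9.40, 6.86, 8.05 and 7.53 CPM in cKO cortex, against 4.73, 3.87, 5.37 and 4.67 CPM in control cortex. The lowest cKO value stood above the highest control value (log2 fold change 0.71, SE 0.15, adjusted p = 0.004). Adcyap1, the precursor of PACAP (pituitary adenylate cyclase-activating polypeptide), measured 38.2, 34.7, 31.1 and 30.3 CPM in cKO cortex, against 29.9, 19.7, 18.2 and 22.8 CPM in control cortex. Its groups were apart, though control DJ3 came close to the lowest knockouts (log2 fold change 0.58, SE 0.13, adjusted p = 0.0048). The other 11 cortical precursors were not called, with log2 fold changes between -0.53 (Cartpt) and 0.75 (Trh). They include the interneuron peptides Npy (log2 fold change -0.18, SE 0.07, adjusted p = 0.12), Vip (log2 fold change 0.22, SE 0.08, adjusted p = 0.081) and Sst, which averaged 46.4 ± 4.92 CPM in cKO cortex and 43.1 ± 2.20 CPM in control cortex (SD, n = 4 each). Cck, made by interneurons and pyramidal neurons, averaged 96.2 ± 6.98 CPM in cKO cortex and 108 ± 14.9 CPM in control cortex. Of 21 GABAergic interneuron genes in cortex, limma called 4 higher and 2 lower, or 28.6% against 13.5% of all genes, edgeR 3 and 3, and DESeq2 4 and 3. Their summed level was 2194 to 2378 CPM in cKO cortex and 2083 to 2231 CPM in control cortex, and the calls with the smallest p were Pvalb (log2 fold change -1.10), Lamp5 (0.54) and Reln (0.56).

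All 4 granins changed in cortex, in opposite directions. Chga, chromogranin A, measured 37.6, 37.0, 35.6 and 36.3 CPM in cKO cortex, against 54.4, 61.4, 45.6 and 54.3 CPM in control cortex. The knockouts were tightly grouped and all below the controls (log2 fold change -0.54, SE 0.08, adjusted p = 0.00022). Chgb, chromogranin B, measured 519, 478, 486 and 450.3 CPM in cKO cortex, against 552, 564, 518 and 567 CPM in control cortex. The highest cKO value, in DJ1, exceeded the lowest control value by little, and the fall was small (log2 fold change -0.19, SE 0.05, adjusted p = 0.02). It was lost on leaving out single libraries (adjusted p = 0.058 to 0.079 without cKO DJ2 or DJ5, or control DJ6 or DJ8). Scg2, secretogranin II, the source of secretoneurin, measured 305, 276, 264 and 279 CPM in cKO cortex, against 254, 244, 228 and 236 CPM in control cortex. The rise was small but the groups did not overlap (log2 fold change 0.22, SE 0.06, adjusted p = 0.01). Vgf, an activity-regulated gene whose protein yields several peptides, measured 82.0, 70.6, 95.7 and 87.1 CPM in cKO cortex, against 63.9, 64.3, 58.2 and 68.2 CPM in control cortex. All knockouts were above all controls (log2 fold change 0.39, SE 0.08, adjusted p = 0.0037).

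The largest cortical change of any member was in a receptor. Qrfpr (chr3:36179424-36222313, GRCm38) encodes the receptor of the RF-amide peptide QRFP. Qrfpr measured 8.85, 8.70, 8.66 and 10.3 CPM in cKO cortex, against 1.39, 2.32, 2.26 and 2.78 CPM in control cortex. The knockouts stood close together, far above every control (log2 fold change 1.86, SE 0.18, adjusted p = 1.6e-06). Glp2r (chr11:67661502-67771153), the receptor of glucagon-like peptide 2, measured 6.97, 6.50, 6.71 and 6.87 CPM in cKO cortex, against 1.11, 1.77, 2.69 and 1.89 CPM in control cortex. It was likewise separated without overlap (log2 fold change 1.66, SE 0.20, adjusted p = 1.5e-05). Its exons share 66 bases with Gas7 on the opposite strand, an abundant gene whose log2 fold change in cortex was 0.17 (adjusted p = 0.012). Oxtr (chr6:112473683-112489943), the oxytocin receptor, measured 14.3, 14.5, 18.2 and 16.0 CPM in cKO cortex, against 5.57, 5.20, 7.63 and 7.01 CPM in control cortex. The lowest knockout was well above the highest control (log2 fold change 1.25, SE 0.14, adjusted p = 9e-06).

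Oprk1 (chr1:5588466-5606131), the kappa opioid receptor on which dynorphins act, measured 45.8, 44.7, 39.7 and 51.2 CPM in cKO cortex, against 19.1, 23.7, 31.8 and 26.4 CPM in control cortex. No libraries overlapped (log2 fold change 0.85, SE 0.12, adjusted p = 0.00011). The mu, delta and nociceptin receptors Oprm1, Oprd1 and Oprl1 were not called, with log2 fold changes of 0.12, -0.25 and 0.23. Cckbr (chr7:105425731-105470898), the main cholecystokinin receptor of the brain, measured 66.1, 66.7, 68.1 and 60.2 CPM in cKO cortex, against 51.1, 44.7, 37.5 and 41.6 CPM in control cortex. The groups stood apart (log2 fold change 0.58, SE 0.09, adjusted p = 0.00014). Adcyap1r1, the PACAP-selective receptor PAC1, measured 116, 125, 137 and 112 CPM in cKO cortex, against 99.1, 94.6, 83.5 and 80.8 CPM in control cortex. All knockouts were above all controls (log2 fold change 0.45, SE 0.08, adjusted p = 0.00053).

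The receptors of neuropeptide Y, an inhibitory co-transmitter, rose in part. Npy2r, the Y2 receptor, which often sits on axon terminals, measured 6.64, 5.39, 5.98 and 6.55 CPM in cKO cortex, against 3.34, 2.10, 4.24 and 4.00 CPM in control cortex. The groups did not overlap (log2 fold change 0.79, SE 0.19, adjusted p = 0.0092). Npy1r, the Y1 receptor, measured 51.9, 50.4, 46.2 and 55.0 CPM in cKO cortex, against 34.2, 46.4, 40.4 and 46.0 CPM in control cortex. The lowest knockout, DJ4, was level with the highest control, DJ6, and the call was at the threshold (log2 fold change 0.29, SE 0.09, adjusted p = 0.049). It was lost on leaving out single libraries (adjusted p = 0.087 to 0.13 without cKO DJ1, DJ2 or DJ5, or control DJ3 or DJ7) and held in 3 of 12 other settings. Npy5r was not called, with a log2 fold change of 0.04.

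Tacr1, the substance P receptor, measured 5.20, 4.66, 3.78 and 3.82 CPM in cKO cortex, against 1.67, 2.54, 4.10 and 1.67 CPM in control cortex. Control DJ7 overlapped the knockouts (log2 fold change 0.76, SE 0.23, adjusted p = 0.037), and the call was lost on leaving out single libraries (adjusted p = 0.064 to 0.12 without cKO DJ1 or DJ2, or control DJ3, DJ6 or DJ8). It was also lost in edgeR (adjusted p = 0.059), in DESeq2 (0.069) and without the libraries of extreme striatal sums (0.096). The neurotensin receptors went in opposite directions. Ntsr1, the high-affinity receptor, measured 9.18, 6.37, 5.74 and 5.89 CPM in cKO cortex, against 5.99, 3.32, 3.39 and 4.23 CPM in control cortex, with control DJ3 among the knockouts (log2 fold change 0.64, SE 0.20, adjusted p = 0.04). Ntsr2, found largely in astrocytes, measured 42.7, 41.0, 33.7 and 33.1 CPM in cKO cortex, against 46.1, 50.5, 40.7 and 47.6 CPM in control cortex, with overlapping groups (log2 fold change -0.30, SE 0.10, adjusted p = 0.047). Both calls were lost on leaving out single libraries. For Ntsr1 these gave adjusted p = 0.072 to 0.13 without cKO DJ1 or DJ2, or control DJ6, DJ7 or DJ8. For Ntsr2 they gave adjusted p = 0.068 to 0.14 without cKO DJ4 or DJ5, or control DJ3, DJ6 or DJ8. Of 6 astrocyte genes, 0 were called in cortex by limma, edgeR or DESeq2, and 1 had an unadjusted limma p under 0.05.

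Rxfp2 (chr5:150018675-150082184) was the steepest fall. It encodes a relaxin family receptor whose ligand is insulin-like peptide 3. Rxfp2 measured 0.553, 1.47, 1.34 and 1.64 CPM in cKO cortex, against 4.04, 4.76, 5.37 and 5.34 CPM in control cortex. Every knockout was far below every control (log2 fold change -1.66, SE 0.23, adjusted p = 6.6e-05). Its annotated exons share 294 bases with an antisense transcript. The related receptor Rxfp1 averaged 71.0 ± 7.55 CPM in cKO cortex and 70.2 ± 3.76 CPM in control cortex, with no call. Cort, a somatostatin-like precursor, and the somatostatin receptors Sstr1, Sstr2, Sstr3 and Sstr4 were not called either. Over these and Sst, a family of 6, the counts at an unadjusted p under 0.05, by edgeR and by DESeq2 were all 0.

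Of the 26 cortical members tested and not called, 15 are given here by their means. Among precursors, Trh (thyrotropin-releasing hormone) averaged 0.928 CPM in cKO cortex and 0.315 CPM in control cortex, Nts 1.60 and 0.804 CPM, Tac2 (neurokinin B) 3.62 and 2.31 CPM, and Cort 1.68 and 1.14 CPM. Pnoc, the nociceptin precursor, averaged 1.39 CPM in cKO cortex and 1.01 CPM in control cortex, and Cartpt, the precursor of CART peptides, 1.91 and 2.84 CPM. Among receptors, Crhr1 averaged 7.46 CPM in cKO cortex and 6.90 CPM in control cortex, Hcrtr2, an orexin receptor, 7.23 and 7.78 CPM, and Vipr1, a receptor of VIP and PACAP, 22.9 and 25.3 CPM. Tacr3 averaged 1.63 CPM in cKO cortex and 2.66 CPM in control cortex, and Grpr, the receptor of gastrin-releasing peptide, 2.00 and 1.15 CPM. Sstr2 averaged 14.1 CPM in cKO cortex and 16.1 CPM in control cortex, Sstr3 13.3 and 14.9 CPM, Sstr1 1.34 and 2.14 CPM, and Sstr4 1.66 and 1.60 CPM.

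**Figure D3:**
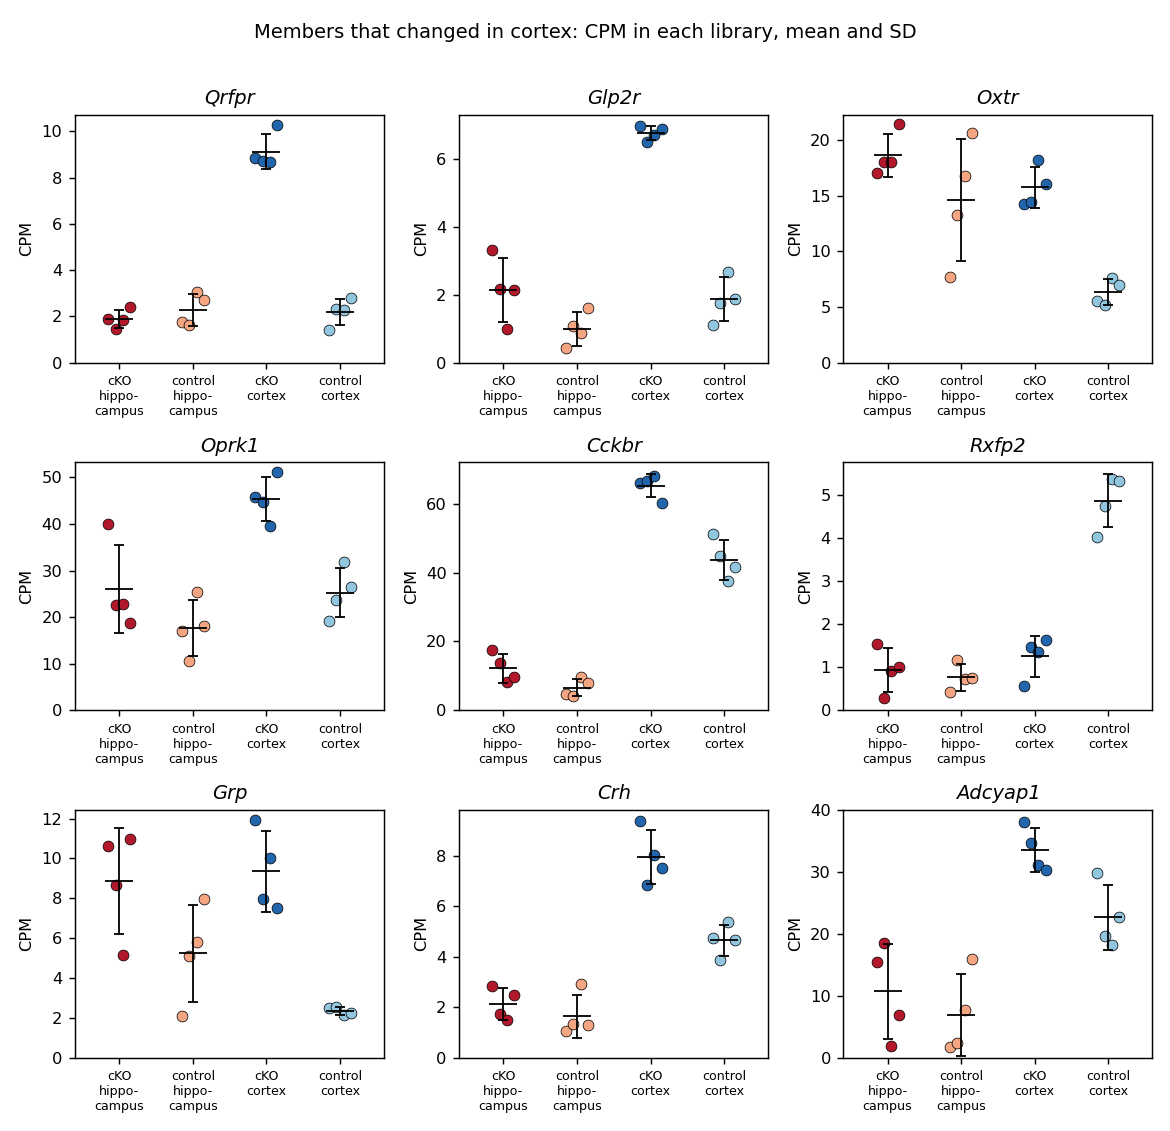
CPM in each library (points) with group mean and SD (bars) for 6 receptors and 3 peptide precursors, cKO left of control within each region. All 9 are called members whose cortical groups did not overlap, so their separation in cortex follows from the choice. Called members with overlapping groups, such as Nmb and Tacr1, are not shown here. Rxfp2 alone is lower in the cKO cortex, at 0.553 to 1.64 CPM against 4.04 to 5.37 CPM in control cortex.

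Set side by side, precursor and receptor were both called higher in cortex for PACAP (Adcyap1 and Adcyap1r1) and for substance P (Tac1 and Tacr1). The Tacr1 call was made by limma but not by edgeR or DESeq2. For cholecystokinin, neuropeptide Y and dynorphin a receptor rose in cortex while the precursor was not called (Cck -0.16, Npy -0.18 and Pdyn -0.14 on the log2 scale). For corticotropin-releasing hormone and gastrin-releasing peptide the precursor rose while the receptor was not called (Crhr1 0.12 and Grpr 0.68). For enkephalin Penk rose, while the mu and delta receptors Oprm1 and Oprd1 were not called. For neurotensin the precursor Nts was not called, while Ntsr1 was called higher and Ntsr2 lower, both calls being lost on leaving out single libraries. These pairings describe transcripts of whole tissue, not of single synapses.

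Cortical calls differed in how they held up. When all 16 libraries shared 1 fit, and so the spread of the hippocampal libraries, 14 members were called, and Penk, Adcyap1, Scg2, Cckbr, Chgb, Npy1r, Ntsr1 and Ntsr2 were lost. Leaving out DJ1 and DJ6, the cortical libraries with the most choroid plexus transcripts, also left 14. It lost Crh (adjusted p = 0.052), Adcyap1 (0.059), Npy2r (0.071) and the 5 calls of Nmb, Npy1r, Ntsr1, Ntsr2 and Tacr1. Qrfpr, Grp, Glp2r, Oxtr, Oprk1, Rxfp2, Chga, Adcyap1r1, Tac1 and Vgf were called in all 12 alternative fits and in all 8 that left out 1 library. The authors' deposited table for cortex lists 13 members among its 874 genes, each also called here and in the same direction. Its largest log2 fold changes among members are 2.02 for Qrfpr, 1.96 for Grp and -1.99 for Rxfp2. Chgb, Crh, Nmb, Npy1r, Npy2r, Ntsr1, Ntsr2, Scg2 and Tacr1 were called here but are not in the authors' table.

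In hippocampus few members changed. Of 51 tested, 2 were lower, Chgb and Mc4r, and 0 higher, or 3.92% against 1.38% of all 13899 genes (0.662% higher and 0.719% lower). With limma, 11 of the 51 members were higher and 4 lower at an unadjusted p under 0.05, which 1886 of all 13899 genes met. With edgeR, 0 members were called higher and 2 lower (190 of all genes), and with DESeq2 0 higher and 3 lower (437 of all genes). Chgb measured 449, 486, 528 and 429.9 CPM in cKO hippocampus, against 668, 700.5, 682 and 605 CPM in control hippocampus. The groups were well apart, and the call held when any 1 library was left out (log2 fold change -0.49, SE 0.07, adjusted p = 0.0077). The fall in cortex was smaller, but the difference between regions was not called (adjusted p = 0.085).

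Mc4r, the melanocortin receptor known for its part in energy balance, measured 2.13, 2.30, 2.66 and 3.91 CPM in cKO hippocampus, against 3.97, 7.52, 7.78 and 7.96 CPM in control hippocampus. The highest knockout, DJ19, fell just short of the lowest control, DJ17, and the other controls were well above it (log2 fold change -1.15, SE 0.24, adjusted p = 0.038). Leaving out single libraries lost the call in 6 of 8 fits (adjusted p = 0.055 to 0.15 without cKO DJ15, DJ16 or DJ18, or control DJ20, DJ21 or DJ22). In cortex Mc4r averaged 3.19 ± 0.986 CPM in cKO mice and 3.23 ± 0.657 CPM in controls.

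The next smallest p-values in hippocampus belonged to Npy, Npy1r and Adcyap1r1, none of them called by limma or edgeR, while DESeq2 called Npy1r lower (log2 fold change -0.37, adjusted p = 0.01). Npy measured 43.1, 30.4, 30.2 and 32.2 CPM in cKO hippocampus, against 26.9, 24.7, 25.6 and 26.1 CPM in control hippocampus (log2 fold change 0.37, SE 0.11, adjusted p = 0.16). All 4 knockouts were above the controls, DJ15 by the most. Npy1r measured 36.0, 31.2, 27.9 and 33.8 CPM in cKO hippocampus, against 36.2, 41.9, 39.0 and 42.6 CPM in control hippocampus (log2 fold change -0.31, SE 0.10, adjusted p = 0.16). The knockouts all lay below the controls, with cKO DJ15 and control DJ17 almost level. Adcyap1r1 measured 151, 130.1, 118 and 157 CPM in cKO hippocampus, against 90.6, 115, 111 and 119.9 CPM in control hippocampus (log2 fold change 0.34, SE 0.11, adjusted p = 0.16), with cKO DJ18 below control DJ22. All 17 precursors tested had positive log2 fold changes in hippocampus, from 0.04 to 0.87 with a median of 0.28, against a median of 0.06 over all genes. That count was 13 of 17 under quantile normalization, 16 under median-of-ratios rescaling, and 15 in edgeR and in DESeq2. Over all alternatives and fits that left out libraries, Cartpt, Cck, Cort, Nts, Pnoc, Sst, Tac2 and Trh changed sign at least once. Of these precursors, 3 were higher and 0 lower at an unadjusted limma p under 0.05, which 1886 of all 13899 genes met.

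The authors' deposited table for hippocampus lists 5 members among its 243 genes. It gives Chgb and Mc4r as lower (log2 fold changes -0.54 and -1.36) and Penk, Pdyn and Tac1 as higher (0.62, 0.60 and 0.51). The last 3 were not called here. Penk measured 248, 109.6, 149.8 and 159 CPM in cKO hippocampus, against 153, 99.7, 130.1 and 28.8 CPM in control hippocampus (log2 fold change 0.87, SE 0.43, adjusted p = 0.4). One control, DJ22, was far below the rest, and it had the lowest striatal sum (198 CPM), while cKO DJ15, with the highest Penk, had the highest (1016 CPM). Of 12 striatal neuron genes in hippocampus, 0 were called by limma, edgeR or DESeq2 and 0 had an unadjusted limma p under 0.05. Without DJ15 and DJ22 the opioid family log2 fold changes reached at most 0.35. Tac1 measured 42.5, 34.3, 32.3 and 31.5 CPM in cKO hippocampus, against 36.4, 17.7, 23.6 and 16.8 CPM in control hippocampus (log2 fold change 0.62, SE 0.20, adjusted p = 0.19), and would be called without control DJ17 (adjusted p = 0.013).

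The test of the difference between regions called 6 of 51 members, or 11.8% against 2.72% of 13881 genes. Of these, 3 had the higher effect in hippocampus (1.17% of all genes did) and 3 the lower (1.55%). The split was 3 and 2 in edgeR, which lost Npy2r (adjusted p = 0.06), and 2 and 7 in DESeq2, where Grp (adjusted p = 0.049), Mc4r (0.04), Oxtr (0.031) and Vgf (0.035) were called lower and Rxfp2 had no adjusted p. The effects on Npy, Npy1r and Npy2r were opposite in sign in the 2 regions. For Npy the hippocampal minus cortical effect was 0.56 (SE 0.14, adjusted p = 0.032), from 0.37 in hippocampus and -0.18 in cortex. For Npy1r it was -0.60 (SE 0.14, adjusted p = 0.023), from -0.31 and 0.29. For Npy2r it was -1.13 (SE 0.26, adjusted p = 0.02), from -0.34 and 0.79. Npy2r in hippocampus measured 50.3, 90.0, 93.3 and 85.7 CPM in cKO hippocampus, against 81.0, 100.1, 108 and 107 CPM in control hippocampus, with groups that overlapped, and its change was not called there. Leaving out single libraries lost Npy (adjusted p = 0.05 to 0.071 without control hippocampus DJ20, DJ21 or DJ22, or cKO cortex DJ4 or DJ5, or control cortex DJ3 or DJ7) and Npy1r (adjusted p = 0.05 to 0.057 without control hippocampus DJ20 or DJ22, or cKO cortex DJ5). Without the 4 libraries with the most extreme striatal sums, Npy, Npy1r and Npy2r were all lost (adjusted p = 0.14, 0.076 and 0.11).

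**Figure D4:**
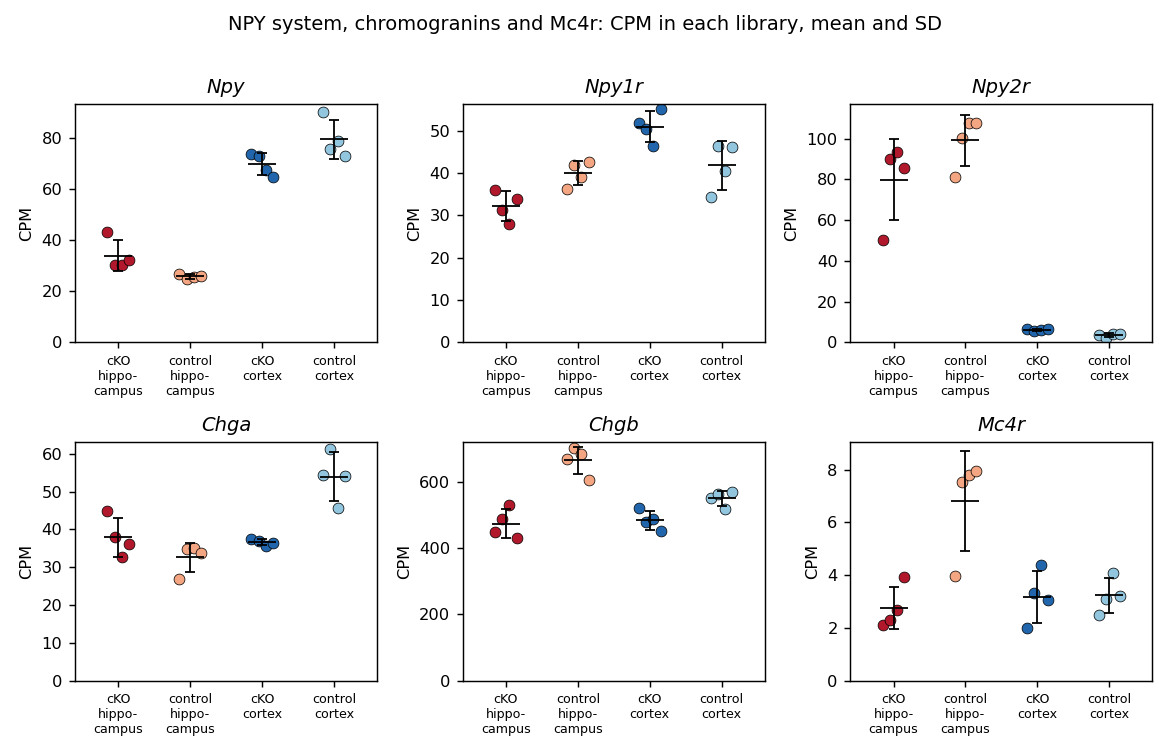
CPM in each library (points) with group mean and SD (bars) for Npy, Npy1r, Npy2r, Chga, Chgb and Mc4r, cKO left of control within each region. Chgb is lower in the knockouts of both regions, Chga is lower in cKO cortex and not called in hippocampus, and Npy1r lies at 27.9 to 36.0 CPM in cKO hippocampus against 36.2 to 42.6 CPM in control hippocampus, a difference that limma did not call, but is higher in cKO cortex.

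The other 3 differences between regions were Chga, Rxfp2 and Qrfpr, which held in every limma fit that left out 1 library and in edgeR. Chga measured 44.8, 38.0, 32.6 and 36.3 CPM in cKO hippocampus, against 26.8, 34.7, 35.0 and 33.7 CPM in control hippocampus. It differed by 0.76 (SE 0.15, adjusted p = 0.0063), with the fall in cortex and a log2 fold change of 0.21 in hippocampus that was not called. Rxfp2 measured 1.53, 0.288, 0.915 and 0.996 CPM in cKO hippocampus, against 0.418, 1.16, 0.727 and 0.742 CPM in control hippocampus, low in both groups, and differed by 1.80 (SE 0.39, adjusted p = 0.013), while DESeq2 gave it an unadjusted p of 2.3e-05 only. Qrfpr measured 1.89, 1.44, 1.83 and 2.42 CPM in cKO hippocampus, against 1.77, 1.61, 3.05 and 2.70 CPM in control hippocampus, again with overlap, and differed by -2.06 (SE 0.29, adjusted p = 0.00025). Without control hippocampus DJ17, 10 members were called, since Grp (adjusted p = 0.011), Mc4r (0.012), Oxtr (0.0036) and Vgf (0.037) joined them, and 699 of all genes against 378. That library had an oligodendrocyte sum of 12031 CPM against 4602 to 6314 CPM in the other control hippocampi, and a striatal sum of 986 CPM against 198 to 482 CPM. The part of these tissues in the calls was not tested.

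Many members differed between the regions themselves. In cKO mice 26 of 51 were called, 8 higher and 18 lower in hippocampus than in cortex, or 51.0% against 37.3% of all genes (22.2% higher and 15.2% lower). In controls 30 of 51 were called, 15 higher and 15 lower, or 58.8% against 38% of all genes (21.3% higher and 16.7% lower). Npy2r was the most hippocampal member. It averaged 79.8 ± 19.9 CPM in cKO hippocampus and 6.14 ± 0.576 CPM in cKO cortex (log2 fold change 3.56, SE 0.18, adjusted p = 1.5e-11), and 99.1 ± 12.5 CPM in control hippocampus and 3.42 ± 0.958 CPM in control cortex (log2 fold change 4.69, SE 0.18, adjusted p = 2.8e-13). Nts, the neurotensin precursor, was next, with 11.2, 5.76, 4.82 and 7.12 CPM in cKO hippocampus, against 2.10, 0.980, 1.59 and 1.75 CPM in cKO cortex (log2 fold change 1.84, SE 0.27, adjusted p = 1.9e-05). In controls it measured 5.32, 4.92, 10.2 and 6.01 CPM in control hippocampus, against 0.974, 0.332, 1.13 and 0.778 CPM in control cortex (log2 fold change 2.44, SE 0.27, adjusted p = 4.4e-07). No hippocampal library fell within the range of the cortical ones. Tacr3, the neurokinin B receptor, measured 7.44, 5.76, 2.75 and 7.61 CPM in cKO hippocampus, against 1.44, 1.84, 0.854 and 2.40 CPM in cKO cortex. In controls it measured 3.86, 5.01, 10.0 and 9.45 CPM in control hippocampus, against 1.81, 2.32, 2.83 and 3.67 CPM in control cortex, so that hippocampus was higher in each genotype (log2 differences 1.55 and 1.20). The galanin receptor Galr1 was at 0.915 to 2.16 CPM in cKO hippocampus and 0.122 to 0.332 CPM in cKO cortex, and at 0.985 to 1.96 CPM in control hippocampus and 0 to 0.443 CPM in control cortex.

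Cckbr was the most cortical. It averaged 12.2 ± 4.18 CPM in cKO hippocampus and 65.3 ± 3.47 CPM in cKO cortex (log2 fold change -2.43, SE 0.21, adjusted p = 2.9e-08), and 6.58 ± 2.55 CPM in control hippocampus and 43.7 ± 5.75 CPM in control cortex (log2 fold change -2.71, SE 0.21, adjusted p = 4e-09). Its hippocampal libraries measured 17.4, 13.7, 8.07 and 9.68 CPM in cKO hippocampus, against 4.70, 4.21, 9.53 and 7.90 CPM in control hippocampus, overlapping between genotypes. Vip, the precursor of vasoactive intestinal peptide, measured 17.0, 19.6, 15.2 and 17.6 CPM in cKO hippocampus, against 73.7, 66.4, 74.3 and 60.7 CPM in cKO cortex (log2 fold change -1.96, SE 0.14, adjusted p = 2.5e-09). In controls it measured 10.5, 14.2, 14.0 and 21.7 CPM in control hippocampus, against 57.5, 55.1, 55.8 and 66.8 CPM in control cortex (log2 fold change -1.97, SE 0.14, adjusted p = 1.5e-09). Cortex was higher in every library. Adcyap1 had log2 differences of -1.99 in cKO mice (adjusted p = 0.0066) and -2.09 in controls (adjusted p = 0.0045). Its hippocampal libraries varied widely, with 15.5, 18.6, 1.91 and 6.83 CPM in cKO hippocampus, against 1.67, 2.33, 7.63 and 15.9 CPM in control hippocampus, and cKO DJ18 and controls DJ17 and DJ20 were the lowest. Crh averaged 2.14 ± 0.629 CPM in cKO hippocampus and 7.96 ± 1.08 CPM in cKO cortex, and 1.64 ± 0.852 CPM in control hippocampus and 4.66 ± 0.614 CPM in control cortex, with log2 differences of -1.70 in cKO mice and -1.33 in controls. For Npy these were -1.04 and -1.60. Rxfp1, a relaxin receptor, measured 47.1, 36.0, 31.5 and 19.5 CPM in cKO hippocampus, against 73.8, 79.5, 61.6 and 69.3 CPM in cKO cortex. In controls it measured 29.3, 24.4, 24.3 and 20.9 CPM in control hippocampus, against 72.8, 65.3, 73.5 and 69.4 CPM in control cortex. No cortical library fell within the hippocampal range, and both differences were called (adjusted p = 2.4e-05 in cKO mice and 6e-07 in controls). Qrfpr was called between regions in cKO mice (-2.02) and not in controls (0.04), and Rxfp2 in controls (-2.11) and not in cKO mice (-0.32). These contrasts reuse the libraries of the genotype tests.

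**Figure D5:**
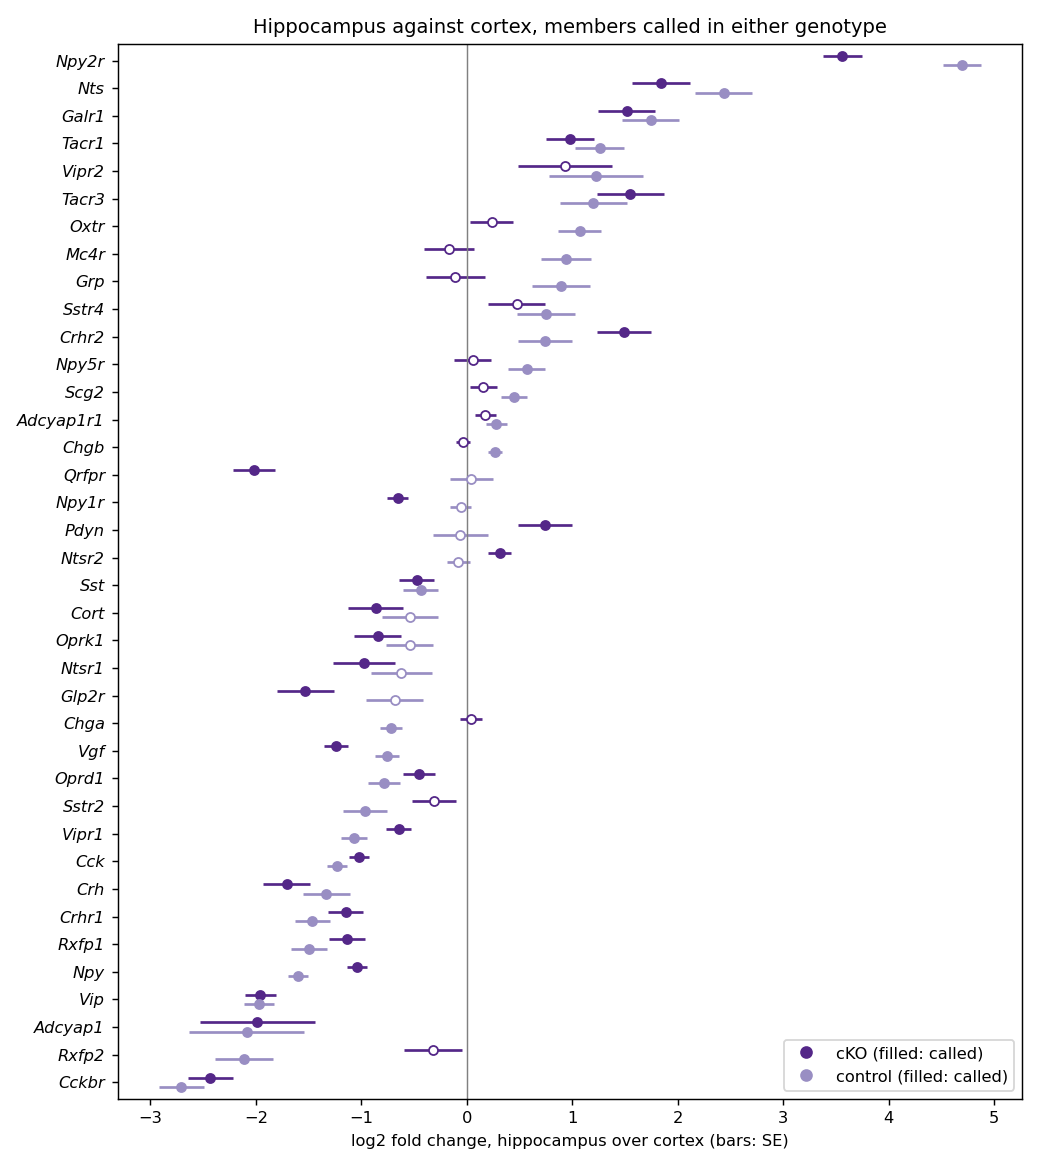
Log2 fold change, hippocampus over cortex, of members called in either genotype, with standard errors as bars, cKO in dark purple just above control in light purple, filled where called. Npy2r stands furthest to the right at 3.56 in cKO mice and 4.69 in controls, and Cckbr furthest to the left at -2.43 and -2.71.

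Beyond these, the members called in both genotypes and lower in hippocampus were Cck, Vgf, Sst, Crhr1, Vipr1 and Oprd1, and those higher were Tacr1 and Crhr2. The call of Sst was lost in 4 of 8 fits that left out 1 library in cKO mice (adjusted p up to 0.12) and in 6 of 8 in controls (up to 0.19), and that of Crhr2 in controls in 4 of 8 (up to 0.12). The call of Oprd1 in cKO mice was kept in 5 of 8 (up to 0.095). Among the members called in controls alone, Oxtr (14.6 ± 5.48 CPM in hippocampus, 6.35 ± 1.16 CPM in cortex), Mc4r (6.81 ± 1.90 and 3.23 ± 0.657 CPM) and Grp (5.24 ± 2.43 and 2.35 ± 0.209 CPM) were called higher in hippocampus. In cKO mice none of these was called between regions. There Oxtr averaged 18.6 ± 1.93 CPM in hippocampus and 15.7 ± 1.81 CPM in cortex, Mc4r 2.75 ± 0.806 CPM in hippocampus and 3.19 ± 0.986 CPM in cortex, and Grp 8.85 ± 2.66 CPM in hippocampus and 9.36 ± 2.03 CPM in cortex. With limma the region by genotype difference was not called for any of them (adjusted p = 0.15 for Oxtr, 0.085 for Mc4r and 0.23 for Grp), whereas DESeq2 called all 3, as given above.

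Among genes that make, package and degrade peptides, the shares called in cortex are read against 13.5% of all genes (7.64% higher and 5.83% lower). Of 14 peptide processing enzymes in cortex, 2 rose and 1 fell, or 21.4%. Pam, which amidates many peptides, averaged 288 ± 12.6 CPM in cKO cortex and 210.0 ± 8.55 CPM in control cortex (log2 fold change 0.45, adjusted p = 8.9e-06), Cpd, a carboxypeptidase, rose by 0.29, and Cpm, another, fell by 0.61 on the log2 scale. Of 15 genes of dense core vesicle machinery, 3 rose and 3 fell, or 40%. Cadps and Cadps2, priming factors for these vesicles, had log2 fold changes of -0.41 and -0.53, and Syt4, a synaptotagmin, one of 0.20. Cadps was also the 1 of 16 such genes called in hippocampus, at 254 ± 7.29 CPM in cKO mice and 319 ± 7.16 CPM in controls (log2 fold change -0.33, adjusted p = 0.0088). Of 17 peptide-degrading enzymes in cortex, Ece2 rose (0.59) and Dpp4 fell (-0.99), or 11.8%. The degrading enzymes stood near the share of all genes, and the share of the processing enzymes rests on few calls.

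Of 12 other secreted peptides and their partners in cortex, 3 rose and 3 fell, or 50% against 13.5% of all genes. The 3 with the smallest p were Cbln2 (log2 fold change -0.74) and Cbln1 (0.74), which are secreted synapse organizers rather than classical neuropeptides, and Apln, the apelin precursor (-0.71). Of 25 other peptide receptors, 4 rose and 1 fell, or 20% against 13.5% of all genes. With edgeR 5 rose and 2 fell (1794 of all 13713 genes were called), and with DESeq2 5 rose and 1 fell (1677 of all genes). Mchr1, a receptor of melanin-concentrating hormone, rose by 0.60 and Ramp3, an accessory protein of calcitonin family receptors, by 0.79. Gpr37, an orphan receptor abundant in oligodendrocytes, fell by 0.61, beside the lower oligodendrocyte sums given above, whose part in it was not tested. In hippocampus limma called 0 of the 14 processing, 17 degrading, 13 other peptide and 29 other receptor genes. At an unadjusted p under 0.05, 1 was higher and 1 lower in each of the first 3 lists, and 4 were higher and 1 lower among the receptors. Since 1886 of all 13899 genes in hippocampus met that level, these lists stood near the share of all genes. There edgeR called 1 processing enzyme, and DESeq2 1 processing enzyme, 1 degrading enzyme and 2 receptors, against 190 and 437 of all 13899 genes. Of 21 GABAergic genes there, only Calb2 was called, or 4.76% against 1.38% of all genes. It averaged 60.5 ± 12.5 CPM in cKO mice and 10.3 ± 6.13 CPM in controls (log2 fold change 2.64, adjusted p = 0.0016).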

How the data were processed

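RNA was measured in 16 samples, 4 in each group of region and genotype, placed by their titles. The authors deposited CPM values of 21999 genes, and the submitters' processing notes name STAR, HTSeq and edgeR and the builds mm10 and GRCm38. The sources used here do not give versions, annotation or strand setting. Whole reads were recovered for 100% of values within 0.001 reads. All fits used log2(CPM + 0.5) of the deposited values, in limma 3.58.1 (R 4.3.3) with a mean-variance trend, for genes averaging at least 0.5 CPM. Genotype was fitted on the 8 libraries of a region, and region contrasts and the difference between regions on all 16 with 4 group means. Adjusted p-values are Benjamini-Hochberg over all genes tested. Per the file headers, the authors' deposited tables hold log2 fold changes and adjusted p-values of the genes they called. Foxp1 was also tested over the 70 labellings of 8 libraries.

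Alternatives were pseudocounts of 0.1 and 1, a minimum of 1 CPM or none, robust variance, rescaling by median of ratios or quantiles, edgeR 4.0.16 and DESeq2 1.42.0 on the recovered reads, 1 fit of all 16 libraries, and leaving out each library. Left-out sets of libraries, by striatal and by choroid plexus transcripts, and a replicate block on DJ numbers were chosen after the data were seen. The named genes are all called members of a genotype comparison, filled up to 5 by smallest p, the 8 largest region differences called in both genotypes, and up to 3 called genes of each pathway list. The members and lists were chosen with earlier results of these data known. Exon lengths and overlaps are from GENCODE on GRCm38. Between replicates, counts gave a chi-square per degree of freedom of 2.14 to 17.1, so no library was a repeat of another. The fits were also run on simulated counts with the same spread setting for every gene. The real libraries differ from that, so it gives no error rate for them.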

Additional observations from a re-analysis of the deposited data

Results flagged for a closer look

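Single libraries stood apart from the other 3 of their group in 9 of 198 groups of 4 values, about the 1 in 20 that chance gives. In cKO hippocampus, Npy was 43.1 CPM in DJ15 against 30.2 to 32.2 CPM in the others, Npy5r 4.49 CPM in DJ15 against 6.55 to 6.91 CPM, Pnoc 0.582 CPM in DJ18 against 1.58 to 1.77 CPM, and Scg2 233.5 CPM in DJ18 against 340.0 to 352.7 CPM. In control hippocampus, Crh was 2.91 CPM in DJ21 against 1.04 to 1.34 CPM in the others, Nmb 0.675 CPM in DJ22 against 0.509 to 0.537 CPM, Chga 26.8 CPM in DJ17 against 33.7 to 35.0 CPM, and Mc4r 3.97 CPM in DJ17 against 7.52 to 7.96 CPM. In cKO cortex, Qrfpr was 10.3 CPM in DJ5 against 8.66 to 8.85 CPM. Of these 9 values, 8 were in hippocampus.

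The genotype effect differed between hippocampus and cortex by the interaction test for 6 members. The hippocampal minus cortical effect, on the log2 scale, was 0.56 for Npy, 0.76 for Chga, 1.80 for Rxfp2, -0.60 for Npy1r, -1.13 for Npy2r and -2.06 for Qrfpr. For Rxfp2 and Qrfpr the change was in cortex, and the hippocampal groups overlapped.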

How the results depend on the processing

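No called member changed sign in the comparison where it was called, in any alternative or on leaving out a library. Of members not called, 17 of 49 changed sign in hippocampus, among them Nts, Cck and Sst, and 9 of 26 in cortex. In hippocampus the count of 2 called members became 1 with no expression minimum, 1 without the libraries of extreme striatal sums and 4 with all 16 libraries in 1 fit (Npy and Cckbr joined), and ranged from 1 to 3 on leaving out 1 library. In cortex the count of 22 became 14 with all 16 libraries in 1 fit. It was also 14 without the cortical libraries with the most choroid plexus transcripts, and ranged from 17 to 20 on leaving out 1. The count of 6 differences between regions became 3 without the extreme striatal libraries, and ranged from 4 to 10 on leaving out 1. In DESeq2 it was 2 higher and 7 lower, against 3 and 3. The region counts stayed within 23 to 27 in cKO mice and 24 to 33 in controls. The cause of these shifts was not tested, and the fits that left out libraries also had fewer of them.

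Foxp1, cKO minus control, ranged from -127.3 to -92.27 CPM in hippocampus and from -181.0 to -164.9 CPM in cortex on leaving out 1 library (exact permutation p = 0.0571 each, the smallest that 3 against 4 allow). Over all genes in hippocampus, 92 higher and 100 lower calls became 60 and 135 under median-of-ratios rescaling, 56 and 109 under quantile normalization and 59 and 131 in edgeR. DESeq2 called 437 genes there, the 1 fit of all 16 libraries 446 and the fit with no expression minimum 129, against 192. Leaving out 1 library gave 56 (without DJ20) to 295 (without DJ17), with 63 without DJ16, 82 without DJ19 and 91 without DJ21, so the 1.38% of all genes called there is itself uncertain. In cortex 1047 higher and 800 lower calls became 829 and 951 under median-of-ratios rescaling. Between regions, 3076 higher and 2105 lower calls in cKO mice became 2560 and 2459. Rescaling moved the median of all genes by less than 0.1 (log2). The groups share no replicate numbers, but each cortex DJ number plus 14 is a hippocampus number of the same genotype. The labels do not say that these libraries share a mouse. Their deviations from the group means correlated by -0.02 to 0.16, and 4 of 8 hippocampal libraries correlated best with that partner. A replicate block on this offset, added after the data were seen, called 8 members for the difference between regions (Mc4r and Oxtr joined, adjusted p = 0.032 and 0.042), 27 between regions in cKO mice and 33 in controls, against 6, 26 and 30. For members near 1 CPM, such as Nmb and Rxfp2, few reads stand behind each value.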
